A study of Mus musculus with 27 samples.

Results

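Collagen genes were read in whole mouse hearts at 14 days of age. A gene was taken when its Ensembl identifier in the count table maps to a protein-coding symbol made of Col, a type number, the letter a and a chain number, and when it had 10 or more reads in 3 or more libraries. This gave 41 genes of the 51826 in the table. The pattern matched 44 genes, and Col2a1, Col9a1 and Col19a1 were left out for too few reads. The nearest gene above the limit, Col10a1, had 10 or more reads in 3 libraries, and the nearest below it, Col2a1, in 2. Of the 41, 10 encode fibrillar chains, 6 type IV chains of basement membranes, 6 type VI chains, 3 network-forming chains, 7 fibril-associated chains, 2 multiplexins, 1 the anchoring fibril chain, 4 transmembrane chains and 2 other chains. The study asked, by its treatments, what block of thyroid hormone synthesis and of adrenergic receptors does to the postnatal heart.

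All hearts came from CD-1 pups, 3 per group, in 27 RNA-seq libraries that the labels divide into sets A and B. In the PTU groups the pregnant females ate iodine-deficient chow with 0.15% propylthiouracil (PTU), which blocks thyroid hormone synthesis, from E13.5, and the treatment was kept up. Pups received subcutaneous injections every day from postnatal day 1 to 14. These held phenoxybenzamine (PHE, 10 ug per g per day), an alpha-adrenergic blocker, propranolol (PRO, 20 ug per g per day), a beta-adrenergic blocker, both, or saline. Set B held PTU, PRO, PTU+PRO and a saline group of its own, and set A held PHE, PHE+PRO, PTU+PHE, PTU+PHE+PRO and its saline group. All PHE hearts were therefore in set A, and PTU without PHE was in set B. No label gives a hormone level, a litter or the hearts' dates. Nor does a label say whether the saline hearts of sets A and B are different animals, so hearts are counted here by library. PTU reached pups through their mothers, so litter and PTU cannot be told apart, and p-values measure the spread between these hearts.

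Collagens are triple helices of 3 chains. Fibrillar types I, III and V form the load-bearing fibrils between heart muscle cells and are made mainly by fibroblasts. Type IV chains form the sheet of the basement membrane around muscle cells and capillaries, as a common network of alpha 1 and alpha 2 chains and rarer networks that use alpha 3 to alpha 6. Other types link or decorate these structures: type VI forms beaded microfilaments, type VIII lies in vessel walls, the fibril-associated types sit on fibril surfaces, the multiplexins XV and XVIII bridge basement membrane and stroma, and transmembrane types stay in the membrane of the cell. In rodents the weeks after birth are a time of rapid matrix deposition in the heart.

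Levels are CPM, the usual depth-scaled read counts, after TMM scaling, and comparisons between genes use CPM per kb of the principal transcript. Libraries held 30791885 to 78913915 reads. Cardiomyocyte markers summed to 42039 to 46889 CPM in the PTU hearts and 59910 to 64244 CPM in the saline hearts of set B. In set A they summed to 64766 to 67413 CPM in the PTU+PHE hearts, 71894 to 87265 CPM in the PHE hearts and 68414 to 70661 CPM in the saline hearts. The 12 libraries with PHE had fewer reads on genes with long exon sequence, taken over all annotated transcripts of a gene. The measure was the median log2 level of genes over 8 kb of such exon sequence less that of genes under 1 kb, each gene set against its mean over all libraries. It ran between -0.822 and -0.033 in these libraries, against 0.0124 to 0.217 in saline hearts of set A and 0.104 to 0.471 in set B. The steepest were PTU+PHE+PRO 2, PTU+PHE 3 and PHE 3. Within set B this measure was higher in the hearts with PTU, at 0.419 to 0.471 in PTU and 0.384 to 0.464 in PTU+PRO hearts. It was 0.104 to 0.267 in saline and 0.196 to 0.203 in PRO hearts, so PTU comparisons of set B also carry a length difference. The sample titles number the PHE+PRO hearts 1 to 3, but 2 columns of the count table are headed PHE+PRO 2; they are used as separate hearts of that group, written 2a and 2b, and which of them is heart 3 is not known. All 41 collagen genes are longer than the median of the genes tested (principal transcripts of 2624 to 11511 bases against a median of 2616). The comparisons with PHE groups, and PTU against saline of set B, were therefore also fitted with a length offset per library, whose counts and changed calls are given. The kit does not mark strand, so reads in exons shared with another annotated gene cannot be assigned. Such genes overlap Col3a1, Col4a2, Col4a3, Col5a1, Col6a4, Col6a6, Col7a1, Col9a3 (Tcfl5), Col10a1 (Nt5dc1), Col15a1, Col20a1 and Col22a1, and Col4a1 and Col4a2 overlap each other.

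In saline hearts of set B, Col3a1, the type III chain, stood highest per length at 462 ± 18.2 CPM per kb (SD, n = 3), and Col4a1 and Col4a2, the chains of the common basement membrane network, followed at 354 ± 18.7 and 249 ± 11.97 CPM per kb. The type I chains Col1a2 and Col1a1 came next at 157 ± 9.78 and 154 ± 11.7 CPM per kb. Their ranges over the hearts overlapped, while within each heart Col1a2 lay slightly above Col1a1 (Col1a1 over Col1a2 0.956 to 0.997). These 5 genes were the ones over 100 CPM per kb. A further 10 lay between 10 and 100 CPM per kb, in the order Col15a1, Col6a2, Col6a1, Col5a1, Col4a5, Col5a2, Col14a1, Col18a1, Col6a3 and Col5a3. Within this band the ranges of neighbours overlapped, except that Col6a1 lay above Col5a1 and Col5a1 above Col4a5 in all 3 hearts. Overlapping ranges do not exclude the same order within each heart, as for Col6a1 over Col6a2, at 0.885 to 0.935. Between 1 and 10 CPM per kb lay 7 genes, Col16a1, Col26a1, Col8a1, Col6a6, Col27a1, Col4a4 and Col11a2. The other 19 had 1 CPM per kb or less, and Col22a1, Col6a5, Col6a4 and Col10a1 closed the order. A count of 3 reads, the most that a count of 0 allows, corresponds to 0.0974 CPM in the shallowest library, counting error only. Together the 41 genes took 10556 to 11423 CPM in PTU hearts, 9005 to 10616 CPM in PRO hearts, 8486 to 8818 CPM in PTU+PRO hearts and 10379 to 11367 CPM in saline hearts of set B. These sums depend on the TMM scaling. As a share of unscaled reads the 41 genes took 1.18 to 1.31% in PTU hearts and 1.01 to 1.09% in saline hearts of set B, which do not overlap. In set A they took 8212 to 8881 CPM in PHE hearts, 9232 to 9536 CPM in PHE+PRO hearts, 4537 to 6262 CPM in PTU+PHE hearts, 4207 to 7439 CPM in PTU+PHE+PRO hearts and 10045 to 10679 CPM in saline hearts.

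With PTU some collagen genes were higher and others lower. In PTU hearts against saline hearts of set B, 19 of 41 genes passed an adjusted p of 0.05 (edgeR quasi-likelihood test, Benjamini-Hochberg over 19119 genes), 12 higher and 7 lower, with a median log2 fold change of 0.40 against 0.007 over all genes tested. In the same comparison 29.4% of all genes were called, 14.3% higher and 15.1% lower. With propranolol in both groups, PTU+PRO against PRO, 17 were called, 9 higher and 8 lower, beside 30.2% of all genes (15% higher, 15.2% lower). With phenoxybenzamine in both groups, PTU+PHE against PHE, 23 were called, 8 higher and 15 lower, beside 36.8% of all genes (18.2% higher, 18.6% lower). With both blockers, PTU+PHE+PRO against PHE+PRO, 20 were called, 6 higher and 14 lower, beside 47% of all genes (24.7% higher, 22.3% lower). These 4 comparisons share no library. Col11a1, Col13a1 and Col23a1 were called higher in all 4, and Col4a2, Col4a3, Col4a4, Col8a1, Col15a1 and Col22a1 lower in all 4. The share of all genes called the same way in all 4 is not given here, so this pattern is not read as particular to collagen genes. Col5a3 and Col18a1 were called in both directions, and 10 genes were called in none, among them Col1a1, Col1a2 and Col5a1. By class, PTU hearts of set B had 3 of 10 fibrillar, 2 of 6 type VI, 3 of 7 fibril-associated, 1 of 2 multiplexin, 2 of 4 transmembrane and 1 of 2 other genes called higher, and 3 of 6 type IV and 1 of 3 network genes called lower, with 1 fall each among fibril-associated, multiplexin and other genes. The median log2 fold change was 0.18 for fibrillar genes, -0.38 for type IV and 0.88 for transmembrane genes. In PTU+PHE against PHE, 2 fibrillar genes were higher and 3 lower, 5 type IV genes were lower, and 3 transmembrane genes were higher, with medians of -0.31, -1.16 and 0.98. Whole hearts cannot tell fewer cells of a type from less RNA per cell.

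**Figure D1:**
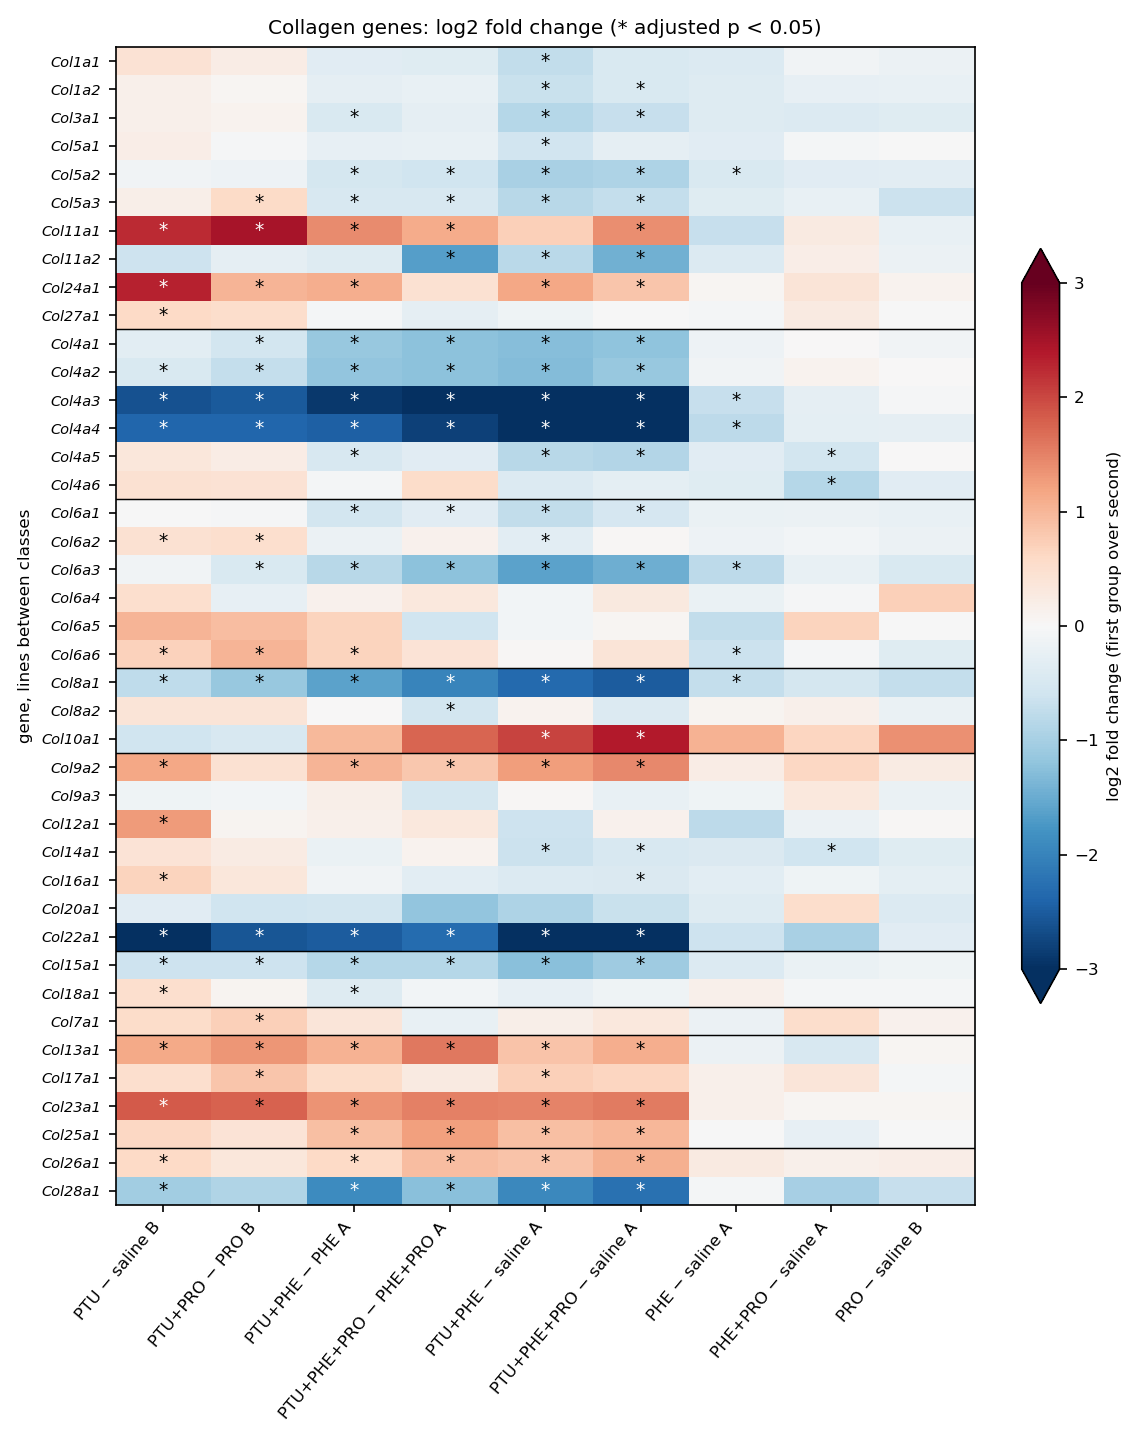
Log2 fold change of the 41 collagen genes (down the page, by class) in 9 comparisons (across), first group over second, with red for higher and blue for lower; the colour scale ends at 3 in either direction, and a star marks an adjusted p under 0.05. Col4a3, Col4a4 and Col22a1 are blue, and Col11a1, Col13a1 and Col23a1 red, in the 4 left columns, where PTU is added to saline, PRO, PHE or PHE+PRO.

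Among the fibrillar genes, the chains of the abundant types I, III and V were not called in PTU hearts against saline, and 3 rarer ones were. The 10 genes summed to 5587 to 6112 CPM in PTU hearts and 4816 to 5318 CPM in saline hearts of set B. Col1a1 stood at 1275, 1226 and 1191 CPM in the PTU hearts, against 855, 889 and 988 CPM in the saline hearts of set B. All PTU hearts lay above all saline hearts, and the difference did not pass the test (log2 fold change 0.43 ± 0.21, adjusted p = 0.128; ± after a fold change is its standard error, n = 3 hearts per group). Col1a2, the second chain of type I, had 993, 906 and 919.8 CPM in PTU hearts and 789, 839 and 894 CPM in saline hearts of set B (log2 fold change 0.16 ± 0.15, adjusted p = 0.456), again without overlap. Col3a1 had 3013, 2697 and 2786 CPM in PTU hearts and 2502, 2517 and 2684 CPM in saline hearts of set B (log2 fold change 0.14 ± 0.16, adjusted p = 0.567). Its values did not overlap either, with the lowest PTU heart just above the highest saline heart. Col5a1 and Col5a2, whose type V helix joins type I in mixed fibrils, had log2 fold changes of 0.19 ± 0.13 and -0.11 ± 0.13 and were not called. Col5a1 had 507, 457 and 470 CPM in PTU hearts, against 391, 413 and 453 CPM in saline hearts of set B, without overlap. Col5a2 had 160, 146 and 140 CPM in PTU hearts, against 151, 157 and 174 CPM in saline hearts of set B, with overlap. Per length, the ratio of Col3a1 to Col1a1 was 2.34 to 2.52 in PTU hearts and 2.89 to 3.12 in saline hearts of set B, and the ratio of Col1a1 to Col1a2 was 1.16 to 1.22 in PTU hearts and 0.956 to 0.997 in saline hearts. Both ratios were apart in all hearts of these 2 groups.

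The rare fibrillar genes Col11a1 and Col24a1 rose in PTU hearts of set B. Col11a1, a chain of type XI collagen known from cartilage fibrils and from developing tissues, had 5.41, 4.58 and 4.42 CPM in PTU hearts, against 0.684, 1.16 and 1.22 CPM in saline hearts of set B (log2 fold change 2.23 ± 0.38, adjusted p = 6.67e-05). Col24a1, the type XXIV chain, known in mice from developing bone, had 5.19, 3.79 and 4.76 CPM in PTU hearts, against 0.779, 0.911 and 1.09 CPM in saline hearts of set B (log2 fold change 2.30 ± 0.28, adjusted p = 9.59e-07). The groups did not overlap for either gene. The highest value of the study was 6.03 CPM for Col11a1, in PTU+PRO 1, and 5.19 CPM for Col24a1, in PTU 1. Col27a1, a chain of cartilage, was also called higher (log2 fold change 0.60 ± 0.21, adjusted p = 0.0327), and that call was lost when any 1 of the 6 hearts was left out (adjusted p up to 0.135). With PRO in both groups Col11a1 was called higher in PTU+PRO hearts (log2 fold change 2.48 ± 0.38, adjusted p = 1.81e-05), as was Col24a1 (log2 fold change 1.01 ± 0.28, adjusted p = 0.00693, and adjusted p = 0.0526 without PRO 2). Both were higher in PTU+PHE against PHE (log2 fold change 1.43 ± 0.39, adjusted p = 0.00592 for Col11a1; log2 fold change 1.09 ± 0.28, adjusted p = 0.00385 for Col24a1). In PTU+PHE+PRO against PHE+PRO Col24a1 was not called (log2 fold change 0.45 ± 0.29, adjusted p = 0.203), and the call of Col11a1 (log2 fold change 1.12 ± 0.37, adjusted p = 0.0166) was lost without PHE+PRO 2a, PHE+PRO 2b, PTU+PHE+PRO 1 or PTU+PHE+PRO 3 (up to 0.145). The 300-base RefSeq promoter windows of these 2 genes (GRCm38.p6, 250 bases before to 50 after the start) are given because both genes rose in PTU hearts of set B; capitals mark matches to the nuclear receptor half-site AGGTCA, the CCAAT box (letters CCAAT) and the GC box (letters GGGCGG), on either strand.
Col11a1, plus strand, chr3:114030290-114030589: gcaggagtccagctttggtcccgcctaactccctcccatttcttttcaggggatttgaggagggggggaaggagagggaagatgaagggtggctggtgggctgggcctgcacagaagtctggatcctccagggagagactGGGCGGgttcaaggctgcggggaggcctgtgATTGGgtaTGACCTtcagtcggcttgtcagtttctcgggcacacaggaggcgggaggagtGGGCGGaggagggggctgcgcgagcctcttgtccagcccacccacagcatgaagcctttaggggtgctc
Col24a1, plus strand, chr3:145292222-145292521: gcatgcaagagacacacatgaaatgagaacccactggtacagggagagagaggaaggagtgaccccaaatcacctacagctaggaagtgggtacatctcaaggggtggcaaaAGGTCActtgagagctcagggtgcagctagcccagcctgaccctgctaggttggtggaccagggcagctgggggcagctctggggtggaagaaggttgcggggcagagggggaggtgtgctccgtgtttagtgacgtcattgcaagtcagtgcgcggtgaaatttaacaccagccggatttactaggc
Each window holds 1 half-site match, on opposite strands. Among the 33 collagen promoters found in RefSeq, 21.2% held such a match, and 16% of all 27025 promoters did. The GC box was found in 66.7% of the collagen promoters and 35.9% of all, and the CCAAT box in 36.4% and 37.9%. None of the matches in these 2 windows overlap each other, and a match does not show that a protein binds.

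In set A the fibrillar genes were mostly lower in PTU+PHE hearts than in saline hearts. Col1a1 had 589, 526 and 305 CPM in PTU+PHE hearts, against 743, 799 and 845 CPM in saline hearts (log2 fold change -0.75 ± 0.21, adjusted p = 0.0049). Col3a1 had 1602, 1480.3 and 1272 CPM in PTU+PHE hearts, against 2608, 2631 and 2615 CPM in saline hearts (log2 fold change -0.85 ± 0.16, adjusted p = 1.58e-04). In both cases the 3 PTU+PHE hearts lay below the 3 saline hearts, and PTU+PHE 3, a library with a steep length bias, was lowest. With the length offset the falls of Col1a1 and Col3a1 were -0.63 ± 0.19 and -0.65 ± 0.14, and both remained called. Of the 10 fibrillar genes, 8 were called in PTU+PHE against saline, 7 lower and Col24a1 higher, and the call of Col11a2, a second type XI chain, was lost without PTU+PHE 3 or saline 2 (adjusted p up to 0.0555). Over all classes 28 of 41 collagen genes were called in this comparison, 8 higher and 20 lower, beside 53.4% of all genes (28.2% higher, 25.2% lower). In PTU+PHE+PRO against saline of set A the count was 26, 8 higher and 18 lower, beside 54.7% of all genes (28.7% higher, 26% lower), and the median log2 fold change was -0.41. Col11a2 was among these falls (log2 fold change -1.45, adjusted p = 6.22e-05), a call kept without each library and in each alternative fit. It had 2.59, 4.05 and 3.49 CPM in PTU+PHE+PRO hearts, against 10.98, 14.4 and 6.36 CPM in PHE+PRO hearts. There it was also called lower without each of the 6 libraries (log2 fold change -1.95 to -1.40, adjusted p up to 2.43e-04). Against PHE, Col3a1 was also called lower in PTU+PHE hearts (log2 fold change -0.46 ± 0.16, adjusted p = 0.0293), and this call was lost without PHE 1, PHE 2, PTU+PHE 2 or PTU+PHE 3 (adjusted p up to 0.124) and in a fit of set A alone (0.0935). Col1a1 and Col1a2 were not called there (log2 fold change -0.33 ± 0.21, adjusted p = 0.225 and log2 fold change -0.28 ± 0.15, adjusted p = 0.143). Col5a2 was called lower in PTU+PHE against PHE (log2 fold change -0.52 ± 0.13, adjusted p = 0.00368) and in PTU+PHE+PRO against PHE+PRO (log2 fold change -0.59 ± 0.13, adjusted p = 9.61e-04, 0.0584 in a fit of the 2 groups alone). Col5a3, the rarest type V chain, was called higher in PTU+PRO against PRO (log2 fold change 0.57 ± 0.17, adjusted p = 0.0157) and lower in PTU+PHE against PHE (log2 fold change -0.48 ± 0.17, adjusted p = 0.0338) and PTU+PHE+PRO against PHE+PRO (log2 fold change -0.47 ± 0.17, adjusted p = 0.0301). Each of these calls depended on single hearts, and was lost without PRO 1, PRO 2, PRO 3 or PTU+PRO 3 (up to 0.0853), without PHE 2, PTU+PHE 2 or PTU+PHE 3 (up to 0.302), and without PHE+PRO 2a or PTU+PHE+PRO 2 (up to 0.183).

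**Figure D2:**
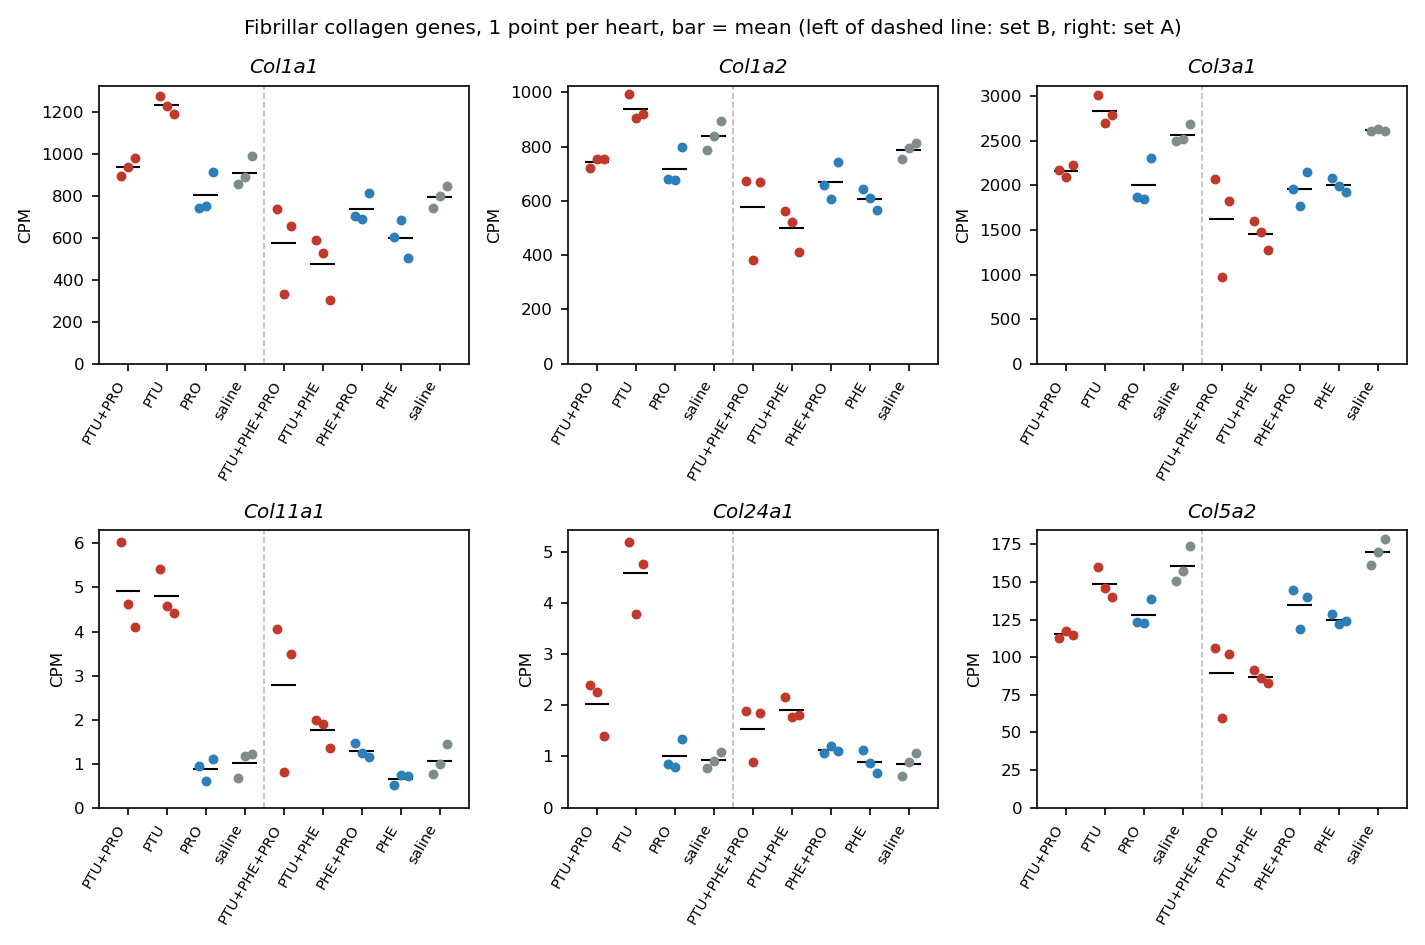
CPM (vertical axis, from 0) of 6 fibrillar genes in each of the 27 hearts by group, with set B left of the dashed line and set A right of it; points are hearts (red with PTU, blue with PRO or PHE alone or together, grey saline) and bars are means of 3. Col11a1 and Col24a1 stand high in the PTU hearts of set B (4.42 to 5.41 and 3.79 to 5.19 CPM), and Col1a1 has its lowest heart in PTU+PHE (305 CPM).

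The steepest falls among collagen genes with a mean of at least 1 CPM were Col4a3 and Col4a4, the alpha 3 and alpha 4 chains of type IV collagen, which with alpha 5 form the network known from the kidney glomerulus, lung and inner ear. Col4a3 had 1.65, 1.35 and 1.18 CPM in PTU hearts, against 6.76, 8.17 and 10.7 CPM in saline hearts of set B (log2 fold change -2.61 ± 0.24, adjusted p = 9.36e-09). Col4a4 had 4.72, 5.15 and 3.62 CPM in PTU hearts, against 20.4, 21.9 and 28.3 CPM in saline hearts of set B (log2 fold change -2.38 ± 0.18, adjusted p = 3.04e-10). Neither gene's groups overlapped. Over the whole study, the 12 hearts with PTU had at most 1.65 CPM of Col4a3 and 5.15 CPM of Col4a4, and the 15 without PTU at least 4.01 and 9.33 CPM. Col4a3 had 1.30, 1.47 and 1.52 CPM in PTU+PRO hearts, against 10.1, 6.04 and 8.72 CPM in PRO hearts (log2 fold change -2.53 ± 0.23, adjusted p = 1.11e-08). It had 0.614, 0.715 and 0.712 CPM in PTU+PHE hearts, against 7.03, 4.16 and 4.01 CPM in PHE hearts (log2 fold change -2.90 ± 0.25, adjusted p = 3.33e-09). Col4a4 had 2.35, 2.41 and 1.79 CPM in PTU+PHE hearts, against 14.9, 11.97 and 9.33 CPM in PHE hearts (log2 fold change -2.46 ± 0.18, adjusted p = 2.58e-10). The calls of both genes in all 4 PTU comparisons held in each alternative fit and without each library.

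Col4a3 and Col4a4 lie head to head on chromosome 1 with 72 bases between their annotated starts (GRCm38). The RefSeq window of Col4a4 spans that gap and runs past the annotated start of Col4a3 into its first bases, and it is shown because both genes fell together.
Col4a4, minus strand, chr1:82586800-82587099: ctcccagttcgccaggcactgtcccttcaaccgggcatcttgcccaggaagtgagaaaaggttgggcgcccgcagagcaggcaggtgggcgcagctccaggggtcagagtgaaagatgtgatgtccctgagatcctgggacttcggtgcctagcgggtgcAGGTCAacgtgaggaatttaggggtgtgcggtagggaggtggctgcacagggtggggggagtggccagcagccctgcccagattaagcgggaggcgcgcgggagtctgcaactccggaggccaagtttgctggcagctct
It holds 1 half-site match, in capitals, and no CCAAT or GC box. The ratio of Col4a4 to Col4a3 per length was 2.43 to 3.23 in PTU hearts and 2.24 to 2.56 in saline hearts of set B, which overlap. It was 2.13 to 3.24 in PTU+PHE hearts and 1.79 to 2.43 in PHE hearts, which overlap too.

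The common chains Col4a1 and Col4a2 were lower with PTU in both sets. Type IV genes summed to 3146 to 3398 CPM in PTU hearts and 3898 to 4292 CPM in saline hearts of set B, and to 1330.2 to 1897 CPM in PTU+PHE hearts and 3329 to 3609 CPM in PHE hearts. Col4a1 had 1959, 1800 and 1912 CPM in PTU hearts, against 2203, 2443 and 2376 CPM in saline hearts of set B (log2 fold change -0.31 ± 0.14, adjusted p = 0.0984). Col4a2 had 1223, 1134 and 1159.9 CPM in PTU hearts, against 1516, 1641 and 1657 CPM in saline hearts of set B (log2 fold change -0.45 ± 0.13, adjusted p = 0.00864). The PTU hearts lay below the saline hearts for both genes. In set A, Col4a1 had 1083, 817 and 771 CPM in PTU+PHE hearts, against 1881, 2063 and 1916 CPM in PHE hearts (log2 fold change -1.13 ± 0.14, adjusted p = 8.57e-07). Col4a2 had 714, 558 and 479.9 CPM in PTU+PHE hearts, against 1292, 1406 and 1306 CPM in PHE hearts (log2 fold change -1.19 ± 0.13, adjusted p = 1.19e-07). All PTU+PHE hearts were below all PHE hearts. PTU+PHE+PRO hearts were lower than PHE+PRO hearts, with log2 fold changes of -1.23 ± 0.14 for Col4a1 and -1.24 ± 0.13 for Col4a2. In set B, PTU+PRO hearts were lower than PRO hearts for both genes (log2 fold change -0.55 ± 0.14, adjusted p = 0.00376 for Col4a1; log2 fold change -0.73 ± 0.13, adjusted p = 1.03e-04 for Col4a2). With the length offset the fall of Col4a1 in PTU+PHE against PHE was -1.10 ± 0.12, and the one in PTU against saline of set B, -0.33 ± 0.12, passed the test.

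Col4a1 and Col4a2 are also divergent neighbours, and their gene models overlap by 22 bases. Their RefSeq windows share 78 bases and are shown as the second pair that moved together.
Col4a1, minus strand, chr8:11312777-11313076: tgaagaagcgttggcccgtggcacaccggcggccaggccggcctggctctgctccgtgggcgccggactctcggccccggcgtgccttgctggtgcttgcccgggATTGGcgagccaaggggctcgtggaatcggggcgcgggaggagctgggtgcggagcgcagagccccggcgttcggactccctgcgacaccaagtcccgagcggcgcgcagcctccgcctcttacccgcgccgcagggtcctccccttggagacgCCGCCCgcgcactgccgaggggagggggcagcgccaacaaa
Col4a2, plus strand, chr8:11312555-11312854: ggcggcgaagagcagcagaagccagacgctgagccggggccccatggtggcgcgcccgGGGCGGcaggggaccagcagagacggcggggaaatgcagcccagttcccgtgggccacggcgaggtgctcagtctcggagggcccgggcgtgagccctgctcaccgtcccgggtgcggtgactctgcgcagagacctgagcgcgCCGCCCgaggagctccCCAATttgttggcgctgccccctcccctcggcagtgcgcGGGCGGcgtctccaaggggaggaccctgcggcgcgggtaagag
The Col4a1 window holds 1 CCAAT box and 1 GC box, the Col4a2 window 1 CCAAT box and 3 GC boxes, and neither holds the half-site. The GC box of the Col4a1 window and the last one of the Col4a2 window are the same site in the shared bases, read on opposite strands. Per length, Col4a1 over Col4a2 was 1.55 to 1.61 in PTU hearts and 1.40 to 1.45 in saline hearts of set B, so the ratio was higher in each PTU heart. In set A it was 1.43 to 1.57 in PTU+PHE hearts and 1.42 to 1.43 in PHE hearts, which overlap.

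The third pair, Col4a5 and Col4a6 on the X chromosome, behaved otherwise. Col4a5 encodes the alpha 5 chain, the partner of alpha 3 and alpha 4. It had 205, 201 and 205 CPM in PTU hearts, against 148, 174 and 159 CPM in saline hearts of set B, higher in each PTU heart but not called (log2 fold change 0.34 ± 0.16, adjusted p = 0.108). In set A it had 94.7, 97.3 and 75.02 CPM in PTU+PHE hearts, against 131, 123 and 118 CPM in PHE hearts (log2 fold change -0.48 ± 0.16, adjusted p = 0.022). That call was lost without PHE 1, PHE 2 or PTU+PHE 3 (adjusted p up to 0.119). Per length, Col4a5 over Col4a1 was 0.106 to 0.113 in PTU hearts and 0.0679 to 0.0721 in saline hearts of set B. It was 0.0885 to 0.120 in PTU+PHE hearts and 0.0603 to 0.0702 in PHE hearts. The ratio was thus higher in every PTU heart of either comparison. Col4a6 stayed between 1.76 and 5.38 CPM in all 27 hearts and was not called in any of the 4 PTU comparisons.

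**Figure D3:**
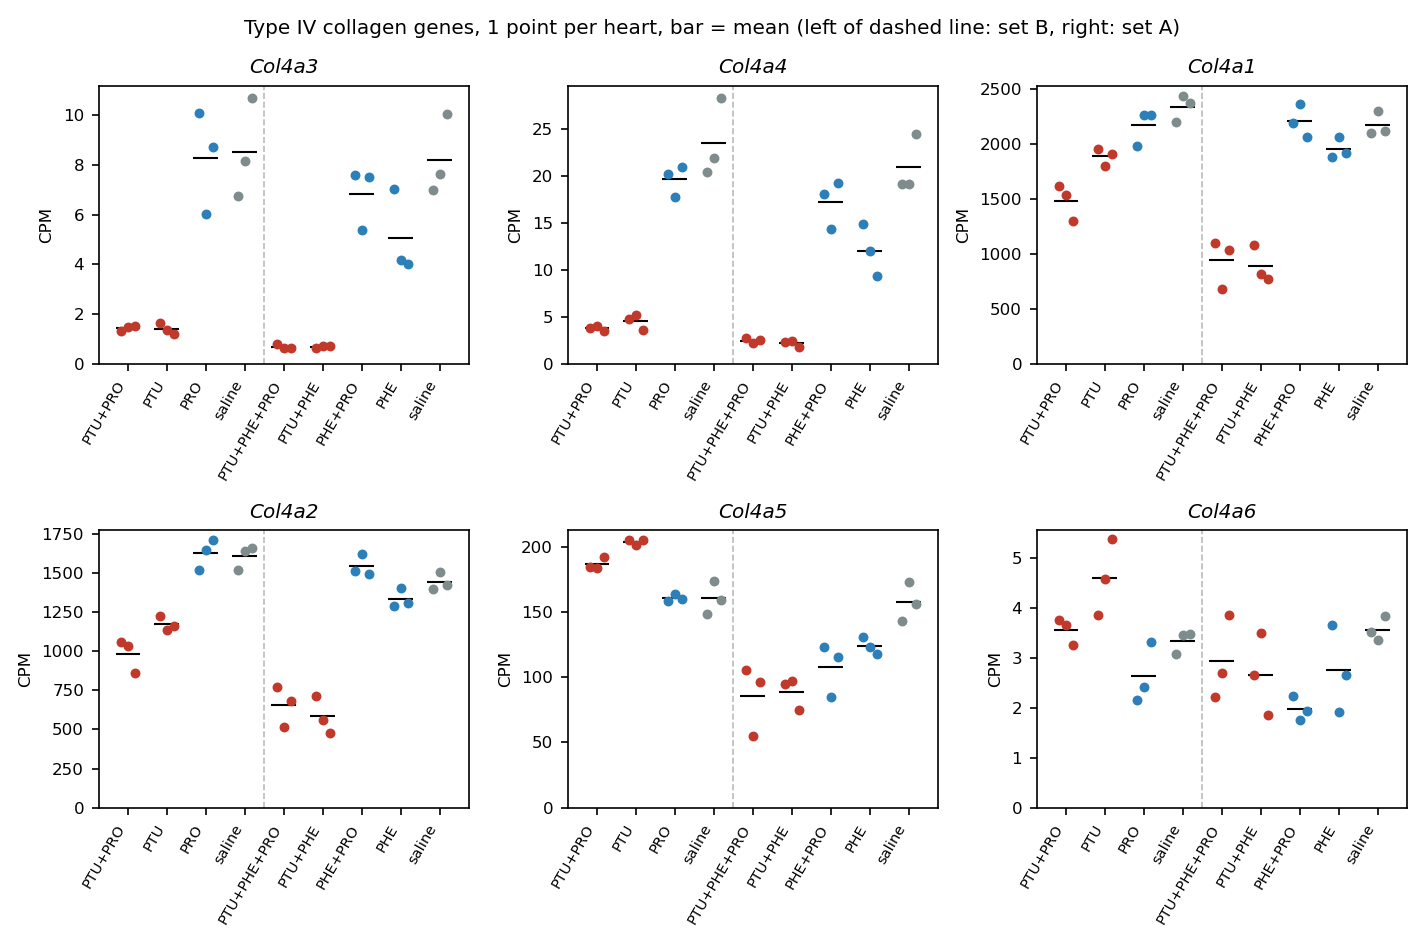
CPM (vertical axis, from 0) of the 6 type IV collagen genes in each of the 27 hearts by group, with set B left of the dashed line and set A right of it; points are hearts (red with PTU, blue with PRO or PHE alone or together, grey saline) and bars are means of 3. Col4a3 and Col4a4 are low in all 4 PTU groups, Col4a1 and Col4a2 are lowest in the PTU groups of set A, and Col4a5 is highest in PTU hearts of set B (201 to 205 CPM) and at 75.02 to 97.3 CPM in PTU+PHE hearts.

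A test of whether the PTU effect differed between PHE and saline backgrounds, PTU+PHE less PHE against PTU less saline of set B, called 4 collagen genes, all more negative under PHE, beside 4.1% of all genes. They were Col4a1 (log2 fold change -0.83 ± 0.20, adjusted p = 0.0211), Col4a2 (log2 fold change -0.74 ± 0.18, adjusted p = 0.0236), Col4a5 (log2 fold change -0.82 ± 0.23, adjusted p = 0.0413) and Col18a1 (log2 fold change -0.89 ± 0.20, adjusted p = 0.0174), here as differences of 2 log2 fold changes. In all, 20 of the 41 had an unadjusted p under 0.05, and DESeq2 called 10. The 4.1% above does not apply to these counts, and without a share of all genes beside them they are no result about collagen genes. The median difference was -0.44 over the 41 and 0.017 over all genes tested. Since PHE was in set A and PTU without PHE in set B, the background and the set cannot be told apart. No label says whether the saline hearts of both sets are different animals. Same-numbered saline hearts had the same sex in both sets. Y-linked genes had 139 and 168 CPM, unscaled, in saline 1 and 2 of set B and 141 and 167 CPM in those of set A. Xist had 437 CPM in saline 3 of set B and 430 CPM in that of set A. Whether they are the same animals was not tested, so the 2 saline groups may not be independent. The steep length bias of PTU+PHE 3 and PHE 3 stands beside this result, and with the length offset Col6a2 and Col6a3 joined the 4. With 1 library left out at a time the count fell to 1 without PTU 1, saline 1 or saline 3 of set B, PHE 1, PHE 2, PTU+PHE 2 or PTU+PHE 3, and to 2 without saline 2 of set B. It was 9 without PTU+PHE 1. Of the 4, only Col18a1 was called in each of the 12 fits that left out 1 library. By edgeR no collagen gene was called for the interaction of PTU and PRO, in set B (0 by DESeq2, 3 at an unadjusted p under 0.05) or under PHE in set A (1 by DESeq2, 2 at an unadjusted p under 0.05). The shares of all genes called were 0.0157% in set B and 1.05% under PHE.

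Type VI collagen forms microfilaments from alpha 1, alpha 2 and one more chain, mostly alpha 3, and its chains did not move together. In PTU hearts of set B, Col6a2 was called higher and Col6a1 and Col6a3 were not called. Col6a1 had 389, 358 and 346 CPM in PTU hearts, against 350.1, 364 and 383 CPM in saline hearts of set B (log2 fold change -0.0057 ± 0.12, adjusted p = 0.98), which overlap. Col6a2 had 543, 527 and 499.7 CPM in PTU hearts, against 360.4, 396 and 396 CPM in saline hearts of set B (log2 fold change 0.45 ± 0.13, adjusted p = 0.00911, 0.0597 without saline 1). Col6a3 had 168, 149 and 128 CPM in PTU hearts, against 140.0, 154 and 183 CPM in saline hearts of set B (log2 fold change -0.10 ± 0.17, adjusted p = 0.709), with overlap. In set A, Col6a3 had 55.3, 54.2 and 49.8 CPM in PTU+PHE hearts, 87.2, 104 and 91.03 CPM in PHE hearts and 145, 158 and 185 CPM in saline hearts. The 3 groups did not overlap, and Col6a3 was called lower in PTU+PHE against PHE (log2 fold change -0.82 ± 0.17, adjusted p = 5.26e-04) and against saline (log2 fold change -1.62 ± 0.17, adjusted p = 7.28e-08). Per length Col6a3 over Col6a2 was 0.0710 to 0.0819 in PTU+PRO hearts, against 0.170 to 0.203 in saline hearts of set B. That ratio was 0.0703 to 0.0892 in PTU+PHE hearts, against 0.175 to 0.216 in saline hearts of set A. Col6a6, an alternative to alpha 3, was higher with PTU in set B (44.3, 46.5 and 40.9 CPM in PTU hearts and 25.6, 29.1 and 26.7 CPM in saline hearts; log2 fold change 0.70 ± 0.19, adjusted p = 0.00772). Col6a4 and Col6a5 did not reach 1 CPM in any heart and were not called in a PTU comparison.

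Of the network-forming genes, Col8a1, the type VIII chain of vessel walls and of the matrix beneath endothelium, fell with PTU in all 4 backgrounds. It had 12.8, 12.8 and 10.9 CPM in PTU hearts, 6.49, 5.28 and 5.01 CPM in PTU+PRO hearts, 10.1, 13.47 and 13.6 CPM in PRO hearts and 19.6, 17.9 and 23.9 CPM in saline hearts of set B. PTU, PRO and PTU+PRO hearts all lay below saline hearts, and PTU+PRO hearts below PTU hearts. PTU hearts were lower than saline hearts (log2 fold change -0.75 ± 0.21, adjusted p = 0.00862, 0.0507 without saline 3), and PTU+PRO hearts more so (log2 fold change -1.87 ± 0.22, adjusted p = 3.13e-07). PRO alone did not pass the test (log2 fold change -0.72 ± 0.21, adjusted p = 0.185). In set A it had 4.95, 2.89 and 3.60 CPM in PTU+PHE hearts, 4.22, 2.11 and 3.78 CPM in PTU+PHE+PRO hearts, 13.2, 11.000 and 10.9 CPM in PHE hearts, 14.6, 9.96 and 15.7 CPM in PHE+PRO hearts and 18.5, 16.8 and 22.4 CPM in saline hearts. The PTU hearts of set A were the lowest of all, with log2 fold changes of -1.62 ± 0.22 for PTU+PHE against PHE and -1.99 ± 0.23 for PTU+PHE+PRO against PHE+PRO. Col8a2, which can pair with Col8a1, was called in 1 of the 4 PTU comparisons, lower in PTU+PHE+PRO hearts than in PHE+PRO hearts (log2 fold change -0.55 ± 0.19, adjusted p = 0.0203), a call lost without PHE+PRO 1 or PTU+PHE+PRO 3 (up to 0.094). Col10a1, the chain of hypertrophic cartilage, reached 10 reads in 3 libraries and never passed 0.411 CPM. It was called higher against saline of set A in PTU+PHE hearts and in PTU+PHE+PRO hearts, calls lost without PTU+PHE 2 or any saline heart (up to 0.374) and without PTU+PHE+PRO 2, PTU+PHE+PRO 3, saline 1 or saline 2 (up to 0.126).

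Fibril-associated genes divided too. Col12a1, which sits on type I fibrils, had 5.66, 5.25 and 4.92 CPM in PTU hearts, against 1.86, 1.69 and 2.96 CPM in saline hearts of set B (log2 fold change 1.28 ± 0.29, adjusted p = 0.00153). It had 2.71, 2.73 and 1.74 CPM in PTU+PRO hearts, all within the range of saline hearts, and was not called in the other PTU comparisons. Col9a2, a type IX chain known from cartilage, had 3.41, 3.57 and 3.04 CPM in PTU hearts, against 1.35, 1.95 and 1.18 CPM in saline hearts of set B (log2 fold change 1.17 ± 0.26, adjusted p = 0.00154). It was also called higher in PTU+PHE against PHE (log2 fold change 1.02 ± 0.26, adjusted p = 0.00379). Col16a1, another fibril-surface chain, was called higher in PTU hearts of set B (log2 fold change 0.67 ± 0.18, adjusted p = 0.00567). Col14a1, a second fibril-surface chain, had 181, 156 and 177 CPM in PTU hearts and 114, 127 and 143 CPM in saline hearts of set B, higher in each PTU heart but not called (log2 fold change 0.42 ± 0.16, adjusted p = 0.0576). Col22a1, known from junctions of muscle and tendon, was low throughout, at 0.0294, 0.0147 and 0.0581 CPM in PTU hearts, against 0.342, 0.318 and 0.179 CPM in saline hearts of set B (log2 fold change -3.02 ± 0.74, adjusted p = 0.00311). No more than 8 libraries had 10 reads of it, and the highest value was 0.381 CPM. Its calls were lost without PRO 2 in PTU+PRO against PRO (adjusted p = 0.0852), without PHE 1 or PTU+PHE 2 in PTU+PHE against PHE (up to 0.0542), and without 4 of 6 libraries in PTU+PHE+PRO against PHE+PRO (up to 0.106; PHE+PRO 1, PHE+PRO 2a, PTU+PHE+PRO 1 and PTU+PHE+PRO 3). Col20a1 and Col9a3 were not called in any PTU comparison, and Col9a3 overlaps Tcfl5.

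The multiplexins went opposite ways in PTU hearts of set B. Col15a1, found in the basement membrane zone of capillaries and muscle, had 303, 347 and 328 CPM in PTU hearts, against 491, 532 and 490.0 CPM in saline hearts of set B (log2 fold change -0.63 ± 0.15, adjusted p = 0.00239). It had 195, 236 and 142 CPM in PTU+PHE hearts, against 336, 345 and 354 CPM in PHE hearts (log2 fold change -0.85 ± 0.15, adjusted p = 9.56e-05). The groups did not overlap in either comparison. Col18a1, the source of the fragment endostatin, had 144, 111 and 153 CPM in PTU hearts, against 95.3, 99.2 and 93.9 CPM in saline hearts of set B (log2 fold change 0.50 ± 0.14, adjusted p = 0.0098, 0.0648 without PTU 3). It had 68.8, 75.8 and 77.7 CPM in PTU+PHE hearts, against 89.7, 102 and 99.4 CPM in PHE hearts (log2 fold change -0.39 ± 0.14, adjusted p = 0.0355). The second call was lost without PHE 2, PHE 3 or any of the 3 PTU+PHE hearts (up to 0.106), when only set A was fitted (0.0706) and with a length offset by principal transcript (0.0545), and kept with the offset by exon length (0.0434).

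Every call of a transmembrane gene in the 17 comparisons was a rise. Col23a1 had 13.8, 8.11 and 11.4 CPM in PTU hearts, against 3.19, 2.86 and 3.23 CPM in saline hearts of set B (log2 fold change 1.84 ± 0.17, adjusted p = 1.66e-08). It had 7.83, 8.23 and 7.51 CPM in PTU+PHE hearts, against 3.29, 2.36 and 3.63 CPM in PHE hearts (log2 fold change 1.34 ± 0.17, adjusted p = 1.47e-06). The 12 hearts with PTU had at least 7.51 CPM of it and the 15 without PTU at most 3.63 CPM. Col13a1, known from the neuromuscular junction, had 4.84, 4.25 and 4.38 CPM in PTU hearts, against 2.20, 1.74 and 2.17 CPM in saline hearts of set B (log2 fold change 1.14 ± 0.23, adjusted p = 4.00e-04), and it was called higher in the other PTU comparisons as well. Col25a1, known in mice for guiding motor axons to muscle, was called higher in PTU+PHE against PHE (log2 fold change 0.91 ± 0.26, adjusted p = 0.00767, 0.0506 without PHE 3) and in PTU+PHE+PRO against PHE+PRO (log2 fold change 1.24 ± 0.27, adjusted p = 6.48e-04). Col17a1, the chain of hemidesmosomes, stayed at or under 1.00 CPM, and its call in PTU+PRO against PRO (log2 fold change 0.83 ± 0.29, adjusted p = 0.0317) was lost without PRO 1, PRO 3, PTU+PRO 2 or PTU+PRO 3 (up to 0.179). Of the other chains, Col26a1 was higher with PTU, at 21.3, 23.1 and 18.2 CPM in PTU hearts and 13.4, 18.04 and 10.1 CPM in saline hearts of set B (log2 fold change 0.60 ± 0.17, adjusted p = 0.00815, 0.0905 without saline 3 and 0.0538 in a fit of the 2 groups alone). Col28a1, known from peripheral nerve, was lower, at 0.897, 0.924 and 0.813 CPM in PTU hearts and 1.82, 1.25 and 2.37 CPM in saline hearts (log2 fold change -1.04 ± 0.34, adjusted p = 0.0229), a call lost without any PTU heart or without saline 1 or saline 3 (up to 0.123). The anchoring fibril gene Col7a1 was not called in PTU against saline of set B (log2 fold change 0.56 ± 0.24, adjusted p = 0.0789), and its call in PTU+PRO against PRO (log2 fold change 0.71 ± 0.23, adjusted p = 0.0232) was lost without PRO 1, PRO 2 or PTU+PRO 3 (up to 0.119).

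**Figure D4:**
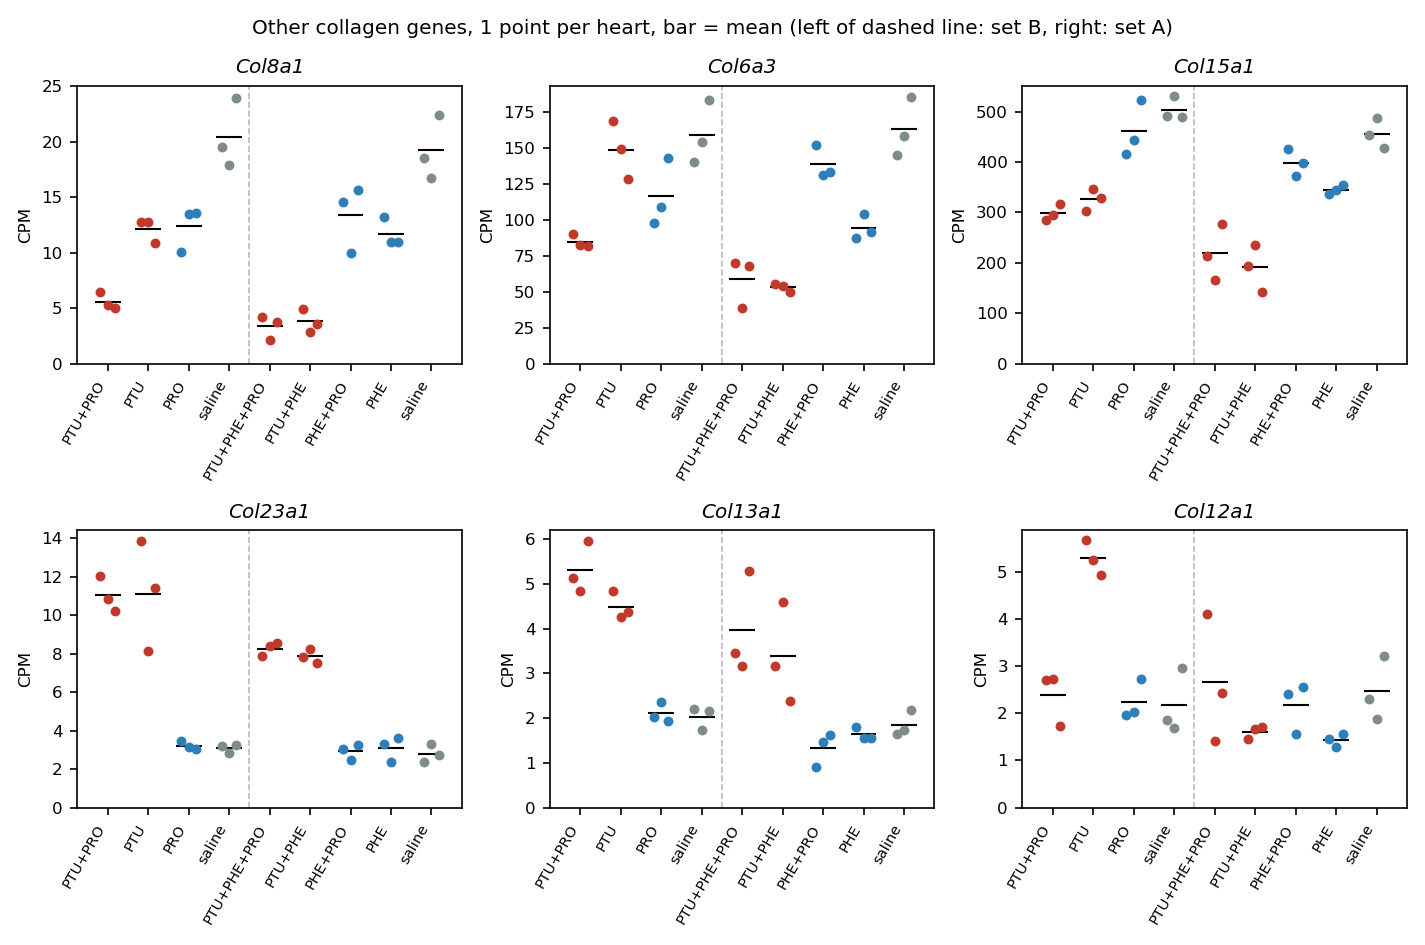
CPM (vertical axis, from 0) of 6 collagen genes outside the fibrillar and type IV classes in each of the 27 hearts by group, with set B left of the dashed line and set A right of it; points are hearts (red with PTU, blue with PRO or PHE alone or together, grey saline) and bars are means of 3. Col23a1 and Col13a1 are high in the 4 PTU groups, and Col12a1 is highest in PTU hearts of set B. Col8a1 and Col15a1 are lower in each PTU group than in the group of its set that differs from it only by PTU, or, for PTU alone, than in saline. For both genes the PTU hearts of set B overlap the PHE hearts of set A.

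In PHE hearts 6 collagen genes were called lower against saline of set A, Col4a3, Col4a4, Col5a2, Col6a3, Col6a6 and Col8a1, and none was higher, beside 14.8% of all genes called (8.14% higher, 6.64% lower). Col4a4 had 14.9, 11.97 and 9.33 CPM in PHE hearts, against 19.2, 19.2 and 24.5 CPM in saline hearts of set A (log2 fold change -0.79 ± 0.17, adjusted p = 0.00693, 0.0503 without PHE 3). Col6a3 had 87.2, 104 and 91.03 CPM in PHE hearts, against 145, 158 and 185 CPM in saline hearts (log2 fold change -0.79 ± 0.17, adjusted p = 0.00767). These were the 2 called with the length offset as well, at -0.59 ± 0.14 for Col4a4 and -0.56 ± 0.14 for Col6a3, and both were lost in a fit of set A alone (0.0556 for each). The other 4 were lost with it, and each was also lost without PHE 3 or saline 3 (adjusted p up to 0.187 for Col4a3, 0.113 for Col5a2, 0.188 for Col6a6 and 0.128 for Col8a1). The median log2 fold change of the 41 was -0.33 without the offset and -0.20 with it. The count was 1 without PHE 3, 2 without saline 3 and 3 without saline 2 of set A. All 3 PHE hearts were male, against 2 of 3 saline hearts. Col4a3 had 7.03, 4.16 and 4.01 CPM in PHE hearts and 6.98, 7.62 and 10.04 CPM in saline hearts, which overlap. In PHE+PRO against saline of set A, Col4a5, Col4a6 and Col14a1 were called lower, beside 5.59% of all genes (2.51% higher, 3.09% lower), and the count was 0 without PHE+PRO 2a, PHE+PRO 2b, saline 1 or saline 3 and 1 without saline 2. In PHE+PRO against PHE edgeR called no collagen gene (4 by DESeq2, 9 at an unadjusted p under 0.05), beside 5.82% of all genes. It called 1 without PHE 1 or PHE 2 and 2 without PHE+PRO 2b.

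With the length offset, 2 collagen genes were called in PHE against saline, beside 7.11% of all genes. There were 27 in PTU+PHE against saline, beside 52.2%, and 26 in PTU+PHE+PRO against saline, beside 54.3%. PHE+PRO against saline kept its 3, beside 5.82%. In PTU+PHE against PHE there were 24, the same 23 and Col1a2, beside 38.1%, and in PTU+PHE+PRO against PHE+PRO 22, the same 20 with Col4a6 and Col6a6, beside 48.2%. In PTU+PHE against PHE the log2 fold changes with the offset were -0.50 ± 0.10 for Col5a2, -0.81 ± 0.14 for Col6a3, -1.58 ± 0.20 for Col8a1, -0.82 ± 0.14 for Col15a1, 1.38 ± 0.17 for Col23a1 and 0.92 ± 0.24 for Col25a1. In PTU against saline of set B there were 21, with Col4a1 and Col14a1 added, beside 31.3%, and for the PTU by PHE interaction 6, beside 5.2%. In PTU+PHE against saline the offset lost Col10a1 and Col6a2 and added Col11a1, and in PTU+PHE+PRO against saline it lost Col16a1 and Col1a2 and added Col17a1 and Col6a6.

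**Figure D5:**
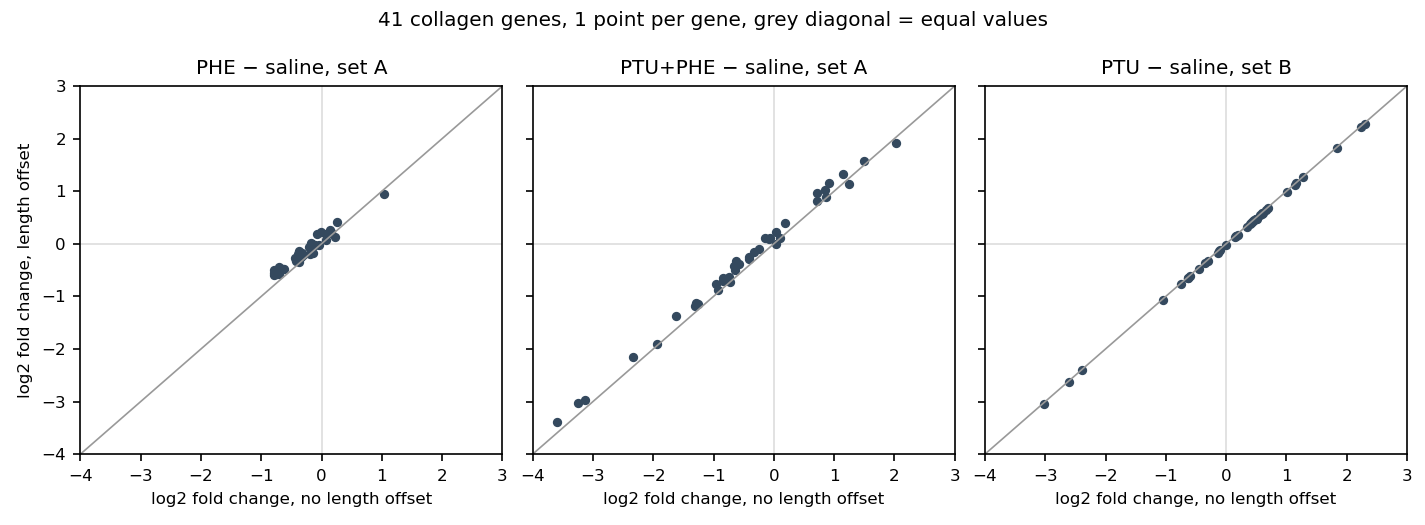
Log2 fold change of the 41 collagen genes without (horizontal axis) and with (vertical axis) a per-library offset for transcript length, 1 point per gene, in PHE against saline and PTU+PHE against saline of set A and in PTU against saline of set B; the grey diagonal marks equal values. Points of the 2 PHE comparisons lie mostly above the diagonal, with medians of -0.20 and -0.32 with the offset against -0.33 and -0.57 without, and those of PTU against saline lie on or just under it.

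In PRO hearts edgeR called no collagen gene against saline of set B (1 by DESeq2, 6 at an unadjusted p under 0.05), beside 0.272% of all genes, and the median log2 fold change was -0.17. In PTU+PRO against PTU 3 were called lower, beside 0.643% of all genes (0.288% higher, 0.356% lower). Col24a1 had 2.39, 2.26 and 1.39 CPM in PTU+PRO hearts, against 5.19, 3.79 and 4.76 CPM in PTU hearts (log2 fold change -1.18 ± 0.26, adjusted p = 0.033). Col8a1 had 6.49, 5.28 and 5.01 CPM in PTU+PRO hearts, against 12.8, 12.8 and 10.9 CPM in PTU hearts (log2 fold change -1.12 ± 0.21, adjusted p = 0.0103). Col6a3 had 89.7, 82.03 and 81.5 CPM in PTU+PRO hearts, against 168, 149 and 128 CPM in PTU hearts (log2 fold change -0.81 ± 0.17, adjusted p = 0.0192). The groups did not overlap for these genes, and no collagen gene was called without PTU 1, PTU+PRO 2 or PTU+PRO 3. Against saline of set B, PTU+PRO hearts had 10 genes higher and 10 lower, beside 35.9% of all genes (17.7% higher, 18.1% lower). In PTU+PHE+PRO against PTU+PHE edgeR called none (1 by DESeq2, 5 at an unadjusted p under 0.05), beside 2.87% of all genes. It called 8 without PTU+PHE+PRO 2, the library with the steepest length bias, and 1 without PTU+PHE 1. The saline groups of the 2 sets differed in no collagen gene by this test (0 by DESeq2, 1 at an unadjusted p under 0.05), beside 4.26% of all genes. The test did not pair same-numbered saline hearts across the sets, so the spread between hearts could hide a shift between sets.

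Genes that make, process, bind or break down collagen were called in both directions. Their counts stand beside 29.4% of all genes called in PTU hearts against saline of set B (14.3% higher, 15.1% lower) and 36.8% in PTU+PHE against PHE (18.2% higher, 18.6% lower), and a share near these is no result about a list. The median log2 fold changes of these 7 lists ran between -0.052 and 0.16 in the first comparison, against 0.007 over all genes, and between -0.56 and 0.059 in the second, against 0.035 over all genes. With the length offset no count of these or of the cell type lists moved by more than 1 in either comparison. Of 19 collagen-modifying and folding enzymes, 4 were higher and 3 lower in PTU hearts against saline of set B, and 3 higher and 9 lower in PTU+PHE against PHE. P4ha3, a catalytic subunit of a prolyl hydroxylase, had 5.58 to 6.06 CPM in PTU hearts and 0.861 to 1.06 CPM in saline hearts of set B (log2 fold change 2.56 ± 0.20). Colgalt2, a collagen galactosyltransferase, fell in both comparisons (log2 fold changes -1.20 ± 0.14 and -1.51 ± 0.14). Of 13 procollagen processing and crosslinking genes, 2 were higher and 2 lower in PTU hearts of set B, and 1 higher and 6 lower in PTU+PHE against PHE. Pcolce2, an enhancer of procollagen C-proteinase, fell to 4.59 to 6.66 CPM in PTU hearts, against 18.7 to 26.98 CPM in saline hearts (log2 fold change -1.99 ± 0.21), while Adamts14, an aminopropeptidase, rose (1.03 ± 0.20). Of 13 small leucine-rich proteoglycans and fibril partners, 3 were higher and 1 lower in PTU hearts of set B and 1 higher and 4 lower in PTU+PHE against PHE. Postn, periostin, rose in both (log2 fold changes 1.37 ± 0.14 and 1.09 ± 0.14).

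The next counts stand beside the same shares of all genes called, 29.4% in PTU hearts of set B and 36.8% in PTU+PHE against PHE. Of 9 collagen receptor genes tested, 2 were higher and 3 lower in PTU hearts of set B and 1 higher and 4 lower in PTU+PHE against PHE. Itga11, the integrin alpha 11 chain of fibroblasts that binds fibrillar collagen, fell to 1.89 to 2.07 CPM in PTU hearts, against 3.99 to 4.98 CPM in saline hearts (log2 fold change -1.16 ± 0.29), while Ddr1, a receptor kinase for collagen, rose (0.57 ± 0.091). Of 14 degradation and inhibitor genes tested, 1 was higher and 1 lower in PTU hearts of set B, the matrix metalloproteinase Mmp11 (log2 fold change 0.58 ± 0.10) and the inhibitor Timp1 (-0.78 ± 0.28), and 4 were lower in PTU+PHE against PHE. Of 16 other basement membrane genes, 7 were higher and 3 lower in PTU hearts of set B, and 4 higher and 7 lower in PTU+PHE against PHE. Lamb2, a laminin chain of mature basement membranes, fell in both (log2 fold changes -0.62 ± 0.11 and -1.19 ± 0.11), while Lamb1, a related laminin beta chain, and Agrn, agrin, rose in PTU hearts of set B (0.44 ± 0.086 and 0.85 ± 0.10). Of 19 TGF-beta pathway genes, 5 were higher and 2 lower in PTU hearts of set B, and 1 higher and 7 lower in PTU+PHE against PHE. Tgfb2, a ligand, rose in both comparisons (0.75 ± 0.13 and 0.49 ± 0.13) and Ltbp4, which binds latent TGF-beta, fell in both (-0.57 ± 0.14 and -1.59 ± 0.14).

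Markers of the cells that make collagen moved beside these results, and their part in them was not tested. Here too 29.4% of all genes were called in PTU hearts of set B and 36.8% in PTU+PHE against PHE. The 13 fibroblast markers summed to 1870.2 to 2039.8 CPM in PTU hearts, against 1775 to 2015 CPM in saline hearts of set B, which overlap, with 2 called higher and 6 lower. In set A they summed to 1774 to 2244 CPM in PTU+PHE hearts and 2108 to 2488 CPM in PHE hearts, with 1 higher and 7 lower. The 8 activated fibroblast markers summed to 840.2 to 946 CPM in PTU hearts and 656 to 664 CPM in saline hearts of set B, with Postn and Tnc called higher and Acta2 and Meox1 lower, and with 1 higher and 4 lower in PTU+PHE against PHE. The 14 endothelial markers, set beside the type IV, VIII and XV genes, summed to 2134 to 2350.3 CPM in PTU hearts and 2908 to 2943 CPM in saline hearts of set B, with none higher and 7 lower. They summed to 2061 to 2498 CPM in PTU+PHE hearts and 3379 to 3776 CPM in PHE hearts, with none higher and 10 lower. Of 10 mural cell markers, 5 were higher and 2 lower in PTU hearts of set B, and 3 higher and 5 lower in PTU+PHE against PHE.

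The 11 cartilage markers, set beside Col11a1, Col11a2, Col27a1, Col9a2 and Col9a3, summed to 35.3 to 40.997 CPM in PTU hearts and 15.6 to 16.8 CPM in saline hearts of set B, with 4 of 7 tested called higher and none lower. They summed to 17.7 to 25.1 CPM in PTU+PHE hearts and 8.28 to 10.98 CPM in PHE hearts, with 5 of 7 called higher. Comp, Matn4 and Sox9 were called higher in both. Comp had 3.67 to 7.09 CPM in PTU hearts and 0.779 to 1.59 CPM in saline hearts of set B. The collagen genes set beside these markers did not all rise. Col11a2 had 5.49 to 6.15 CPM in PTU hearts and 6.76 to 10.5 CPM in saline hearts of set B. It was called lower in 1 of the 4 PTU comparisons and higher in none. Col9a3 was called in none, and Col2a1 had too few reads to be taken. The marker genes Hapln1 and Sox9 also stand in the list of endocardial and valve markers. Of those 8 valve markers, 2 were higher in PTU hearts of set B and 3 in PTU+PHE against PHE, and none was lower. Of 9 epicardial markers 2 were higher and 1 lower in each of these comparisons. Of 7 Schwann cell markers, set beside Col28a1, 1 was higher and none lower in PTU hearts of set B, and 1 was higher and 2 lower in PTU+PHE against PHE. Bone markers, set beside Col24a1, summed to 12.6 to 18.8 CPM in PTU hearts and 40.8 to 46.2 CPM in saline hearts of set B. They summed to 10.4 to 15.5 CPM in PTU+PHE hearts and 38.2 to 56.2 CPM in PHE hearts. Of 4 bone markers tested, Alpl was called lower in both comparisons, while Col24a1 was called higher in both. Of 12 macrophage markers 11 were lower in PTU hearts of set B and 9 in PTU+PHE against PHE. The list of skeletal muscle markers summed to 1027 to 2578 CPM in these whole hearts, so its genes are not read as skeletal muscle here. Of 3 of them tested Ckm was lower in both comparisons. Of 12 cardiomyocyte markers 1 was higher and 6 lower in PTU hearts of set B and 2 higher and 5 lower in PTU+PHE against PHE. The 8 lung and thymus markers summed to at most 3.11 CPM in any heart, and of 3 tested Sftpb was higher and Cd8b1 lower in PTU hearts of set B.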

How the data were processed

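RNA of whole hearts was taken up in Trizol, per the labels' protocols, and libraries were made with the TruSeq RNA Library Prep Kit v2. The authors deposited 1 table of whole-number read counts per gene, with no normalization. Reads were trimmed with cutadapt 1.9, aligned with STAR 2.5.2b to mm10 and counted with featureCounts 1.5.1, per the submitters' processing notes; the settings are not given in the sources used here. All 27 columns were used. Collagen genes and all lists were chosen with earlier results of these data known.

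Counts were scaled by TMM, and 19119 genes passed a filter (minimum count 10, minimum total 15), among them all 41 collagen genes. The quasi-likelihood test of edgeR 4.0.16 (R 4.3.3, limma 3.58.1) was fitted once over 9 group means with 18 residual degrees of freedom, robust, two-sided and with a prior count of 0.125. P-values were adjusted by Benjamini-Hochberg over all genes in each of 17 comparisons, and calls were made at 0.05. The shares of all genes called refer to these calls or to those with the length offset. Counts by DESeq2 or at an unadjusted p have no such share beside them and are not read as results about collagen genes. CPM per kb uses the annotated principal transcript. The length offset is a lowess curve per library (span 0.3) of log2 CPM less the gene's mean against log10 exon length. Alternatives were RLE scaling, no filter, the offset, sex read from Xist and Y-linked genes, a replicate block, fits of 1 set or 2 groups, DESeq2 1.42.0 and each library left out; an offset by principal transcript and a fit without the 3 steepest libraries were added after seeing the data. Scripts were tested on simulated data.

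Members were named by a rule: 12 common chains whatever their change, and in each comparison of groups up to 4 called rises and 4 called falls of largest size with a mean of at least 1 CPM, and up to 4 called genes in each interaction. Values in each heart are given for the 12 chains and for some of the others, in part of the comparisons. From each list up to 3 genes with the smallest adjusted p in PTU against saline of set B and in PTU+PHE against PHE were eligible. Other members are named so that all 41 are accounted for.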

Additional observations from a re-analysis of the deposited data

Results flagged for a closer look

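The PTU effect differed between the PHE background of set A and the saline background of set B, by the edgeR interaction test, for 4 collagen genes. The difference of log2 fold changes, PTU+PHE less PHE against PTU less saline of set B, was -0.83 for Col4a1, -0.74 for Col4a2, -0.82 for Col4a5 and -0.89 for Col18a1. PHE and the set cannot be told apart in this test. With 1 of the 12 libraries left out at a time, Col4a1 lost its call in 7 fits (adjusted p up to 0.068; without PTU 1, saline 1 or 3 of set B, PHE 1, PHE 2, PTU+PHE 2 or PTU+PHE 3), Col4a2 in these and without saline 2 of set B (up to 0.0746), and Col4a5 in every fit but the one without PTU+PHE 1 (up to 0.108). Col18a1 was called in each of the 12 such fits.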

How the results depend on the processing

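Numbers below count collagen genes called. For most of these alternative fits no share of all genes is given, so the counts show how calls moved and are no result about collagen genes. PRO against saline gave 0, and 4 in a fit of the set alone, 1 in a fit of the 2 groups, 1 without the 3 steepest libraries and 1 by DESeq2. PHE against saline gave 6, and 2 with either length offset, 0 with the set alone, 13 with the 2 groups, 10 without the steepest libraries and 11 by DESeq2. PHE+PRO against saline gave 3, and 0 with the set alone and 7 without the steepest libraries. PTU+PHE+PRO against PHE+PRO gave 20, and 13 with the 2 groups. PTU+PRO against PTU gave 3, and 5 with no filter, 12 with the set alone, 13 with the 2 groups, 5 with the principal transcript offset, 11 without the steepest libraries and 5 by DESeq2. PHE+PRO against PHE gave 0, and 1 with RLE, no filter, either length offset, the sex covariate or the 2 groups, 2 without the steepest libraries and 4 by DESeq2. PTU+PHE+PRO against PTU+PHE gave 0, and 1 without the steepest libraries and by DESeq2. The PTU by PRO interaction under PHE gave 0, and 1 by DESeq2. The PTU by PHE interaction gave 4, and 7 with no filter or the principal transcript offset, 12 without the steepest libraries and 10 by DESeq2. The cause of these moves was not tested. A fit of the set alone also ended the calls of Col3a1, Col4a5, Col5a3 and Col18a1 in PTU+PHE against PHE, and of Col5a3, Col6a1 and Col11a1 in PTU+PHE+PRO against PHE+PRO. A fit of the 2 groups ended those of Col26a1 in PTU against saline, of Col5a3 and Col6a6 in PTU+PHE against PHE, and of Col5a2, Col5a3, Col6a1, Col8a2, Col9a2 and Col11a1 in PTU+PHE+PRO against PHE+PRO.

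With 1 library left out, PTU against saline gave 15 to 18 calls and PRO against saline 0 in each. PTU+PRO against saline gave 16 to 19, PHE against saline 1 to 5, PHE+PRO against saline 0 to 3, PTU+PHE against saline 25 to 29, and PTU+PHE+PRO against saline 23 to 27. PTU+PRO against PRO gave 13 to 17, PTU+PHE against PHE 19 to 23, PTU+PHE+PRO against PHE+PRO 16 to 26, PTU+PRO against PTU 0 to 3, PHE+PRO against PHE 0 to 2, and PTU+PHE+PRO against PTU+PHE 0 to 8. Both the saline groups and the PTU by PRO interaction of set B gave 0 in each such fit, that interaction under PHE 0 to 1 (1 without PHE+PRO 2b or PTU+PHE 3), and PTU by PHE 1 to 9. Of 112 named results 84 kept their call in every setting, and none reversed.

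Within each set, replicate numbers did not pair hearts of different groups. Same-numbered hearts had a median correlation of deviations of -0.05 in set A and -0.011 in set B, and 6 of 25 correlated best with their own number. Saline hearts were not compared across the sets in this check. The fit with the numbers as a block also leaves out PHE+PRO 2a and 2b, so that 1 PHE+PRO heart remains, assumed to vary like the hearts of the other groups. In it PHE+PRO against saline gave 0 calls, a count in which the block and the missing hearts cannot be told apart, and the other counts stayed within 1.5 times of those without it. Depth limits the rarest genes: Col10a1, Col6a4 and Col22a1 had 10 reads or more in 3, 6 and 8 libraries.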
